A study of Mus musculus with 8 samples.

Results

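The genes described here are markers of the adipocyte, the fat-storing cell that lies in the epineurium, the outer connective tissue sheath of peripheral nerve. They were chosen by name: Adipoq, Retn, Lep, Plin1, Cidec, Cidea, Cfd, Pparg, Lipe and Ucp1, 10 genes in all. Of these, 8 have a probe set in the array annotation used here, with 9 probe sets between them, among 45101 probe sets and 18193 named genes. Plin1 and Cfd were not analysed here.

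Adult mice had 1 sciatic nerve cut at the notch, and 7 days later RNA was made from a 10 mm piece of the distal stump and from the uninjured nerve opposite. The groups were c-Jun knockout cut nerve (KO cut), c-Jun knockout uncut nerve (KO uncut), control cut nerve (CTRL cut, genotype labelled WT) and control uncut nerve (CTRL uncut), with 2 Affymetrix arrays each and nerves of 4 or 6 mice pooled for every array. The labels call the tissue Schwann cells, but whole nerve segments were used, and the uncut nerve came from operated animals. The labels name the knockout as c-Jun KO and give neither the Cre driver nor the strain. Where values of a group are listed, array 1 comes before array 2, and all levels are log2 expression values.

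White adipocytes keep triglyceride in 1 large droplet, release fatty acids by lipolysis and secrete hormones, the adipokines. PPARgamma, the nuclear receptor encoded by Pparg, drives their differentiation together with C/EBP factors and keeps many of the other genes on. Brown and beige adipocytes carry the same programme and in addition burn fat for heat through the mitochondrial uncoupling protein encoded by Ucp1. A nerve segment holds such cells beside Schwann cells, fibroblasts, vessels and macrophages. A lower signal from fewer adipocytes therefore cannot be told apart from less RNA per adipocyte or from more RNA of other cells.

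Jun, the targeted gene, read 10.39 and 10.80 in KO cut nerve against 11.88 and 11.96 in CTRL cut nerve, and 9.62 and 9.59 in KO uncut nerve against 9.58 and 9.70 in CTRL uncut nerve. Jun was lower in KO cut than in CTRL cut nerve by a log2 difference of -1.33 (limma, adjusted p = 0.00866 by the Benjamini-Hochberg method), and the difference between the uncut nerves was -0.04 (adjusted p = 0.9997). Adipocyte markers that are not among the 10 genes were present in the segments. Of 10 such markers 9 were measured, and the mean over them lay between 9.95 and 10.21 in KO cut, 10.89 and 11.04 in KO uncut, 9.79 and 10.24 in CTRL cut and 10.80 and 10.93 in CTRL uncut nerve.

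Promoter sequences of Adipoq and Lep are shown because these genes have the highest level of the set and the largest standard error of the injury change, and because both contain a match to a searched motif. They are from RefSeq (GRCm38.p6, plus strand in both cases) and run from 250 bases before the transcription start to 50 bases after it. Capitals mark CCAAT boxes (CCAAT on either strand) in Adipoq and the palindromic C/EBP motif TTGCGCAA in Lep.
Adipoq, chr16:23146286-23146585: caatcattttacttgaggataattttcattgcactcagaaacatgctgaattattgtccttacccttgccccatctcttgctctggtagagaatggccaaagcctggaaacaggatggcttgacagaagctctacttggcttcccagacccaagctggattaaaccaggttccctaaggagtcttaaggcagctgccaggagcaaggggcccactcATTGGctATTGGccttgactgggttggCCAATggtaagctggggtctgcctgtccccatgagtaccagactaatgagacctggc
Lep, chr6:29059971-29060270: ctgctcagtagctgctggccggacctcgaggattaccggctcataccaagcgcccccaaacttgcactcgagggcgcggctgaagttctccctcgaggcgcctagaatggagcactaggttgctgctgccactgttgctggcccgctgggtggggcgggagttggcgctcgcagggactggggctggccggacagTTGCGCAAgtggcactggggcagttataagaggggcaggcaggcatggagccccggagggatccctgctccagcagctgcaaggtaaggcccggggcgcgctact
Lep holds the C/EBP palindrome with its first base at -55, a motif found in 0.183% of the 32851 promoter windows of this length. Among the 9 member genes with a window, it was found in Lep alone. CCAAT was found 3 times in Adipoq and is common, in 37.4% of windows. A PPAR-type direct repeat (a pair of AGGNCA hexamers 1 base apart, both strands) was found in 0.381% of all windows and in 0 of the 13 windows of the member genes, and TATAAA in 13.6% of all windows and in a Pparg window. No motif overlapped another in the windows shown. These matches describe letters only.

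All 8 measured adipocyte genes were lower in cut than in uncut nerve when KO and CTRL were averaged. The log2 change, cut minus uncut, lay between -2.03 and -0.80 for the 8 genes, with a median of -1.52, against a median of 0.03 over all 12093 genes tested. Each change passed (limma, adjusted p under 0.05 over all genes), where 24.7% of all genes were called lower and 28.9% higher. The 2 thermogenic genes, Cidea and Ucp1, entered the fit through their uncut arrays, since a probe set had to exceed the array median (6.59 to 6.65) on at least 2 arrays, so the count of 8 is a description. The other 6 genes exceeded it on all 8 arrays.

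Adipoq encodes adiponectin, which sensitises tissues to insulin. It read 12.97 and 12.05 in KO cut nerve against 13.90 and 13.53 in KO uncut nerve, and 12.97 and 12.33 in CTRL cut nerve against 13.88 and 13.61 in CTRL uncut nerve. Every cut array lay below every uncut array, and the probe set stood between percentiles 98.3 and 99.9 of its array throughout, the brightest of the set. The log2 change was -1.20 in KO nerve (SE 0.32, limma adjusted p = 0.0228) and -1.09 in CTRL nerve (SE 0.32, limma adjusted p = 0.0298). In KO nerve the call was lost without KO cut replicate 2, where the change was -0.74 (adjusted p = 0.110), or KO uncut replicate 1 (adjusted p = 0.110). In CTRL nerve it was lost without CTRL cut replicate 2 (adjusted p = 0.157), CTRL uncut replicate 1 (adjusted p = 0.133) or CTRL uncut replicate 2 (adjusted p = 0.0711).

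Retn encodes resistin, an adipokine that in mice comes from white adipocytes. Its values were 10.83 and 10.75 in KO cut nerve against 12.62 and 13.12 in KO uncut nerve, and 11.21 and 9.61 in CTRL cut nerve against 12.36 and 12.42 in CTRL uncut nerve. Cut and uncut arrays did not overlap, while both CTRL cut arrays lay 1.60 apart. Retn fell by 2.08 on the log2 scale in KO nerve (SE 0.44, adjusted p = 0.00877) and by 1.98 in CTRL nerve (SE 0.44, adjusted p = 0.00946), about 4.08-fold when averaged over the genotypes. Without CTRL cut replicate 2 the CTRL change was -1.18 and still passed, and without KO uncut replicate 2 the KO call was lost (adjusted p = 0.0546).

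Lep encodes leptin, the hormone that reports fat stores to the brain. It read 8.64 and 6.98 in KO cut nerve against 10.02 and 8.65 in KO uncut nerve, and 8.40 and 7.26 in CTRL cut nerve against 10.14 and 8.48 in CTRL uncut nerve. Here cut and uncut arrays overlapped (6.98 to 8.64 in cut nerve, 8.48 to 10.14 in uncut nerve), and array 1 was far above array 2 in every group. The change was -1.53 in KO nerve (95% interval -3.30 to 0.25, adjusted p = 0.158) and -1.48 in CTRL nerve (-3.25 to 0.30, adjusted p = 0.161), and neither passed. Averaged over the genotypes it was -1.50 (SE 0.54, adjusted p = 0.0471), a call lost without KO cut replicate 2 (adjusted p = 0.134), KO uncut replicate 1 (0.138), CTRL cut replicate 2 (0.138) or CTRL uncut replicate 1 (0.142).

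**Figure D1:**
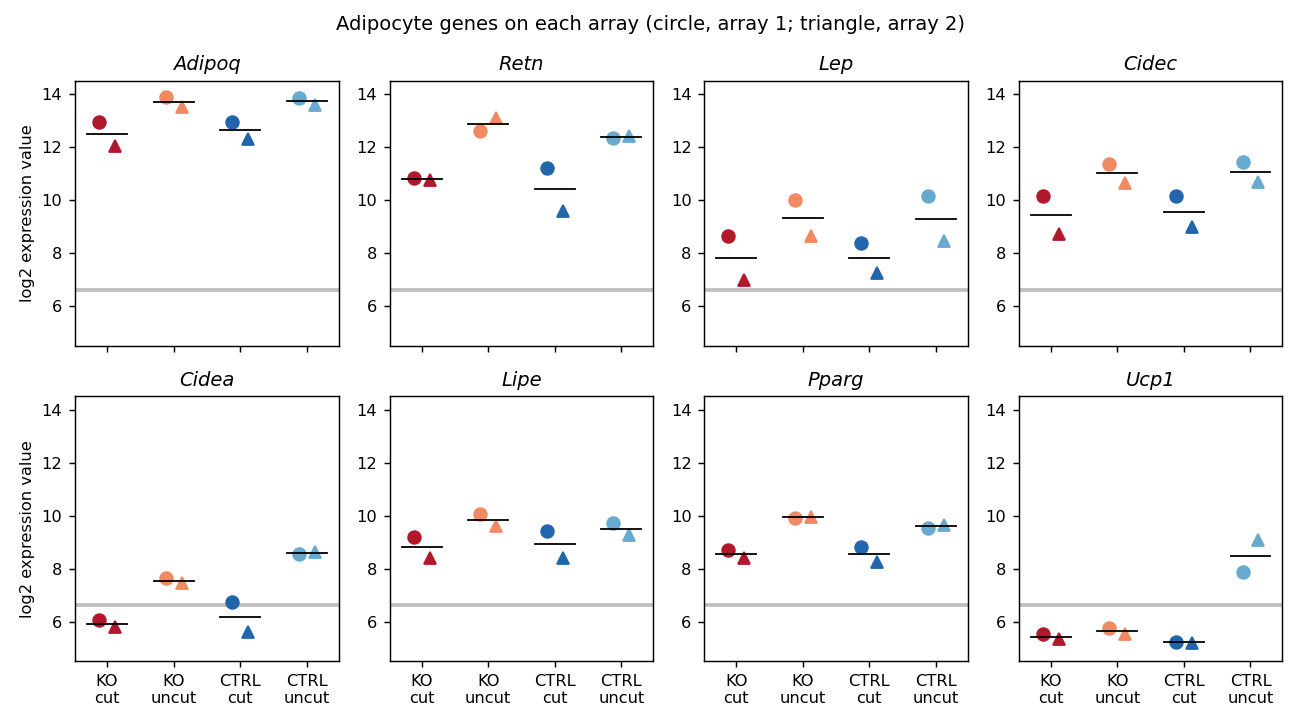
Log2 expression values (vertical axis) of 8 adipocyte genes in KO cut, KO uncut, CTRL cut and CTRL uncut nerve, with a circle for array 1, a triangle for array 2, a line at the group mean and a grey band at the array medians. Cut arrays sit below uncut arrays for Adipoq, Retn, Cidec, Cidea and Pparg, Lep and Lipe overlap, and Ucp1 stands above the band in CTRL uncut nerve alone.

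Cidec, Cidea and Lipe, the members that act on the lipid droplet and in lipolysis, fell in the averaged contrast. Cidec (also called FSP27) fuses small lipid droplets into large ones. It read 10.17 and 8.72 in KO cut nerve against 11.38 and 10.67 in KO uncut nerve, and 10.15 and 9.01 in CTRL cut nerve against 11.45 and 10.69 in CTRL uncut nerve. The cut arrays lay below the uncut arrays without overlap, and again array 1 was the higher of each pair. The change averaged over the genotypes was -1.53 (SE 0.39, adjusted p = 0.0119), while within KO nerve (-1.58, adjusted p = 0.0584) and within CTRL nerve (-1.49, adjusted p = 0.0644) it did not pass.

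Cidea encodes a related droplet protein that in mice is most abundant in brown and beige fat. It read 6.07 and 5.78 in KO cut nerve against 7.64 and 7.45 in KO uncut nerve, and 6.76 and 5.59 in CTRL cut nerve against 8.56 and 8.63 in CTRL uncut nerve. All uncut arrays were above the array median, and 3 of the 4 cut arrays were below it. Cidea entered the fit through its uncut arrays, so its falls and their p-values are a description. Cidea fell by 1.62 in KO nerve (SE 0.32, adjusted p = 0.00697) and by 2.42 in CTRL nerve (SE 0.32, adjusted p = 0.000951), and both calls held with each array left out in turn.

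Lipe encodes hormone-sensitive lipase, which cleaves diglyceride during lipolysis. On its bright probe set it read 9.19 and 8.41 in KO cut nerve against 10.05 and 9.60 in KO uncut nerve, and 9.41 and 8.42 in CTRL cut nerve against 9.72 and 9.26 in CTRL uncut nerve. Cut and uncut arrays overlapped, and the averaged change of -0.80 (SE 0.26, adjusted p = 0.0349) was the smallest of the set. It was lost without the same 4 arrays as that of Lep (adjusted p = 0.0927 to 0.107), and it passed in neither genotype (-1.02 in KO nerve, adjusted p = 0.0674, and -0.58 in CTRL nerve, adjusted p = 0.254). With 1 array left out, the Lipe change ranged from -1.42 to -0.63 in KO nerve, where it passed without KO cut replicate 1 (adjusted p = 0.0409) or either CTRL cut array (0.0357 each), and from -1.07 to -0.08 in CTRL nerve, where it never passed. A second Lipe probe set lay between 4.48 and 4.80, below the 25th percentile on all 8 arrays, and gave no usable reading.

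Pparg, the transcription factor of the set, had the smallest standard error. It read 8.70 and 8.39 in KO cut nerve against 9.92 and 9.94 in KO uncut nerve, and 8.82 and 8.26 in CTRL cut nerve against 9.53 and 9.65 in CTRL uncut nerve. The arrays did not overlap, and Pparg fell by 1.39 in KO nerve (SE 0.19, adjusted p = 0.00120) and by 1.05 in CTRL nerve (SE 0.19, adjusted p = 0.00363). Both calls held with each array left out in turn. Macrophages and endothelial cells can express Pparg as well, at a lower level than fat.

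Ucp1 carries the heat-producing proton leak of brown and beige fat. It read 5.52 and 5.33 in KO cut nerve against 5.74 and 5.54 in KO uncut nerve, and 5.23 and 5.21 in CTRL cut nerve against 7.89 and 9.08 in CTRL uncut nerve. Only the 2 CTRL uncut arrays exceeded the array median, and Ucp1 entered the fit through them alone. Its fall in CTRL nerve and the p-value given with it are therefore a description. In CTRL nerve Ucp1 fell by 3.27 after the cut (SE 0.33, adjusted p = 0.000228), and in KO nerve the change was -0.22 (95% interval -0.98 to 0.54, adjusted p = 0.642). Its averaged change of -1.74 combines these unequal values. On the other 6 arrays Ucp1 lay below the array median, so its KO values show no clear signal from which a fall could be measured.

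**Figure D2:**
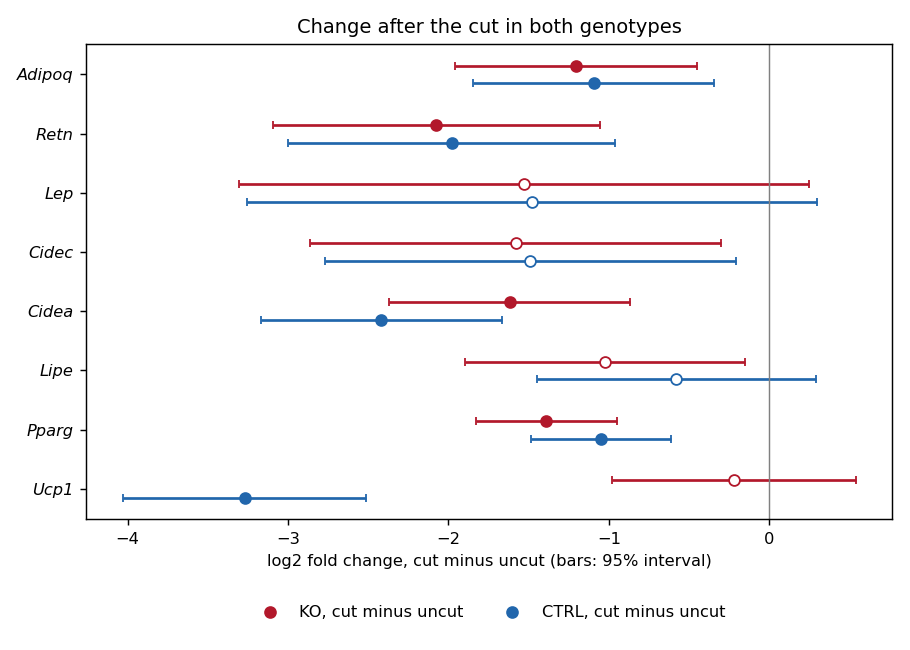
Log2 fold change, cut minus uncut (horizontal axis), of each gene in KO and CTRL nerve, with 95% intervals; filled points passed at an adjusted p under 0.05 over all genes and open points did not. All 16 points lie below 0, and the intervals of both genotypes overlap for each gene other than Ucp1.

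Within KO nerve 4 of the 8 genes fell (Adipoq, Retn, Cidea and Pparg), where 17.8% of all genes tested were called lower. Within CTRL nerve 5 fell, the same 4 and Ucp1, where 17.5% of all genes were called lower. Cut and uncut arrays did not overlap for 6 of the 8 genes, against 23.8% of all genes with non-overlapping lower values after the cut. For Ucp1 that gap was narrow, between 5.52 in the highest cut array and 5.54 in the lowest uncut array. Ucp1 entered the fit through its CTRL uncut arrays alone and Cidea through its uncut arrays. The counts that hold these genes are therefore descriptions.

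The change of each other gene was set against that of Adipoq on the same arrays. None of 7 comparisons passed an exact two-sided permutation test of 4 cut against 4 uncut arrays, which can reach p = 0.0286 at the least (adjusted p = 0.2 to 0.714 over the 7). The level relative to Adipoq differed by -0.88 for Retn (exact p = 0.0571), by -0.87 for Cidea (exact p = 0.0857), by 0.35 for Lipe (exact p = 0.0571), and by -0.39 for Cidec, -0.35 for Lep, -0.07 for Pparg and -0.59 for Ucp1. The test does not show that the genes fell alike.

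Array number moved with several of these genes. Adipoq, Lep, Cidec and Lipe were higher on array 1 than on array 2 in all 4 groups, which held for 18.3% of all genes tested. The gap was 1.14 to 1.67 for Lep, 0.72 to 1.45 for Cidec, 0.46 to 0.99 for Lipe and 0.27 to 0.92 for Adipoq. Retn and Pparg were higher on array 1 in 2 of 4 groups, and Cidea and Ucp1 in 3 of 4. Among genes outside the set, the glucocorticoid-induced genes Fkbp5 (1.71 to 2.36) and Zbtb16 (1.71 to 2.63) and the clock gene Per2 (0.92 to 1.72) showed array 1 higher in all 4 groups; these 3 were picked after their values were seen. The labels do not say what arrays of 1 number share.

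**Figure D3:**
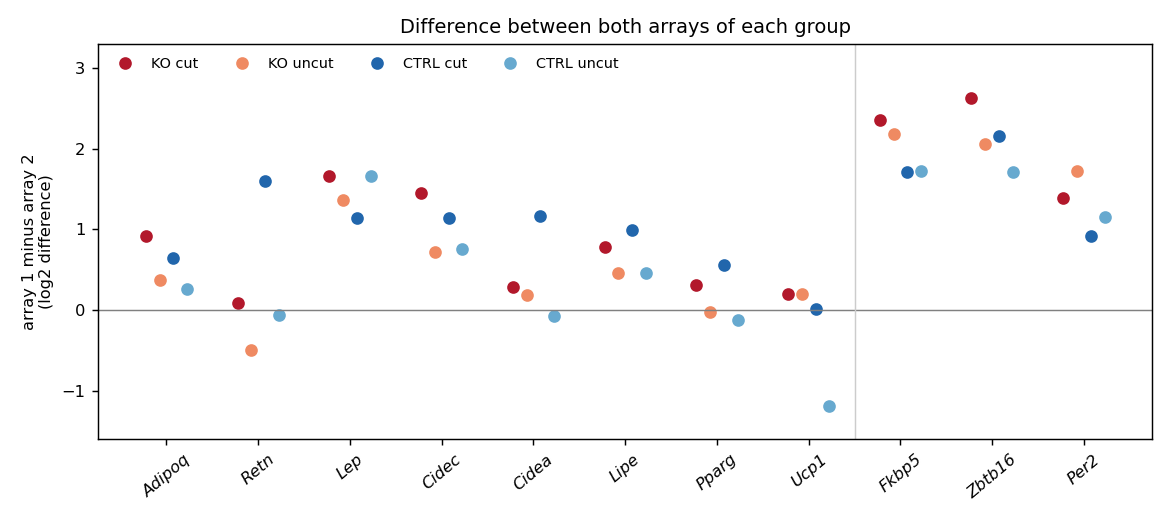
Difference between array 1 and array 2 (vertical axis, log2) of each group for the 8 adipocyte genes and, right of the line, for Fkbp5, Zbtb16 and Per2. All 4 points lie above 0 for Adipoq, Lep, Cidec and Lipe and for the 3 comparison genes, whereas Retn, Pparg, Cidea and Ucp1 straddle 0.

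Genotype made no called difference to the set. Between the cut nerves, KO minus CTRL ranged from -0.25 to 0.38 over the 8 genes and none passed, where limma called 1.09% of all genes in this contrast. The 95% interval was -0.89 to 0.61 for Adipoq, -0.64 to 1.40 for Retn, -0.44 to 0.44 for Pparg and -1.80 to 1.75 for Lep, which are the differences that 2 arrays a group leave possible. Jun itself differed between these groups, as given above.

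Between the uncut nerves, 6 of the 8 genes differed by -0.04 to 0.48, while Ucp1 and Cidea read below their CTRL values in KO nerve. Ucp1 had a log2 difference of -2.84 (95% interval -3.60 to -2.08) and Cidea of -1.05 (-1.81 to -0.30). Neither passed (limma adjusted p = 0.130 for Ucp1 and 0.9997 for Cidea). That contrast called 0 genes (0% of those tested), with 322 genes and 2 of the 8 members at an unadjusted p under 0.05, and Ucp1 ranked 3 of 12093 by p. The interaction, KO minus CTRL injury change, was 3.05 for Ucp1 (adjusted p = 0.0706) and 0.80 for Cidea (-0.27 to 1.87, adjusted p = 0.965), so neither passed, where 0.165% of genes were called. For Ucp1 all 3 groups other than CTRL uncut were below the array median, so these differences are set against values with no clear signal. Averaged over cut and uncut nerve, no member passed for genotype either, where 0.0827% of genes were called. In CTRL uncut nerve, array 1 minus array 2 was -1.19 for Ucp1. Ucp1 entered the fit through these 2 arrays alone, and with either left out it would miss the filter of 2 arrays above the median. If it is kept all the same, and the remaining array is assumed to vary like the other groups, its adjusted p falls below 0.05, which is given as a description: the difference between uncut nerves was -3.44 without replicate 1 (adjusted p = 0.00189) and -2.25 without replicate 2 (adjusted p = 0.0294), and the interaction had adjusted p = 0.00673 and 0.0424. The genotype difference averaged over cut and uncut nerve was then -1.62 (adjusted p = 0.0138) and -1.02 (adjusted p = 0.0458).

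Other genes of heat production were read beside Ucp1 in the uncut nerves. Of 12 thermogenic genes listed beside the set 9 were tested, and since 0% of all genes were called in this contrast, the absence of calls says nothing particular about them. KO uncut minus CTRL uncut ran from -0.42 for Pdk4, a kinase that restrains pyruvate oxidation, to 0.19 for Kcnk3. The median was -0.13, against 0.03 over all genes tested. Cox7a1, a cytochrome oxidase subunit, stood at -0.32, Dio2 at -0.30, Cox8b, another such subunit, at -0.15, the mitochondrial coactivator Ppargc1a at -0.13, Prdm16 at -0.10, Acot2 at 0.02 and Otop1 at 0.05. Pdk4 read 10.93 and 10.05 in KO uncut nerve against 11.12 and 10.69 in CTRL uncut nerve, which overlap. Of 6 brown adipocyte markers beside the set 4 were tested, and their mean level overlapped between KO uncut (8.42 to 8.54) and CTRL uncut nerve (8.48 to 8.81).

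Milk protein genes moved across the same arrays. Csn2, which encodes beta-casein, read 3.69 and 9.15 in KO cut nerve, 13.01 and 10.33 in KO uncut nerve, 11.47 and 7.03 in CTRL cut nerve and 3.50 and 4.14 in CTRL uncut nerve. The mean over 9 measured markers of glandular epithelium and milk, of 10 listed, was 6.69 to 8.81 in KO cut, 9.38 to 9.95 in KO uncut, 7.69 to 9.37 in CTRL cut and 5.90 to 5.95 in CTRL uncut nerve. The CTRL uncut arrays, which are those with high Ucp1, were the lowest of the series. The part of milk protein signal in the Ucp1 and Cidea values was not tested. Without CTRL cut replicate 1 and KO cut replicate 2, the cut arrays of higher milk protein signal, all 8 adipocyte genes kept a negative averaged change. That of Lep was -1.37. This fit leaves 1 array in each cut group and keeps both KO uncut arrays, whose marker means were the highest of the series. It therefore cannot show what the changes would be without milk protein signal.

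Other genes of fat cells were read from 6 lists. In the averaged contrast 24.7% of all genes were called lower and 28.9% higher, the background for each list and marker count below. Enzymes of fat and triglyceride synthesis fell most evenly: of 19 tested (20 listed) 17 fell, 1 rose and 1 did not pass in the averaged contrast, with a median of -1.40. Elovl6, which elongates palmitate, fell by 3.11 (SE 0.27, adjusted p = 6.3e-05) and read 8.50 and 8.46 in KO cut nerve against 11.23 and 11.79 in KO uncut nerve, and 8.74 and 7.40 in CTRL cut nerve against 11.28 and 11.25 in CTRL uncut nerve. Thrsp, a regulator of lipogenesis, changed by -2.42, fatty acid synthase (Fasn) by -1.89 and pyruvate carboxylase (Pcx) by -1.88, all called. The CTRL cut arrays lay far apart for these genes, at 11.56 and 8.74 for Thrsp, 11.75 and 10.10 for Fasn and 9.97 and 8.79 for Pcx. The riser was Acacb, the mitochondrial acetyl-CoA carboxylase of oxidative tissue, at 0.43. Myelinating Schwann cells also make fatty acids. Of 5 measured Schwann cell markers (8 listed) 4 fell, among them Mag at -3.09 and Pmp22 at -2.56, while Sox10 at -0.12 did not pass. The part of Schwann cells in the list was not tested.

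Lipid droplet and lipolysis genes went both ways. Of 20 tested 14 fell, 4 rose and 2 did not pass (median -0.54). The faller Aqp7 entered the fit through uncut arrays alone (5.98 to 6.28 in cut nerve). Its fall, and the count that holds it, are a description. Fallers were led by G0s2, an inhibitor of adipose triglyceride lipase, at -1.53, and the caveola gene Cav2 at -1.12, with the droplet coat gene Plin4 at -1.09. The risers were Fabp5 at 1.57, Plin2, the droplet coat protein found in most cell types, at 1.53, Fitm1 at 1.21 and Hilpda at 0.52. Plin2 read 13.00 and 12.80 in KO cut nerve against 11.39 and 11.50 in KO uncut nerve, and 12.76 and 12.70 in CTRL cut nerve against 11.15 and 11.09 in CTRL uncut nerve, without overlap. Plin2 and Fabp5 are abundant in lipid-loaded macrophages and Fitm1 in muscle. In the same contrast 7 of 8 macrophage markers and 8 of 8 skeletal muscle markers rose, with the mean of the muscle markers at 13.22 to 13.84 in KO cut and 13.10 to 13.42 in CTRL cut nerve against 10.94 to 11.97 in KO uncut and 11.27 to 11.90 in CTRL uncut nerve. The mean of the macrophage markers was 11.38 to 11.64 in KO cut and 11.59 to 11.62 in CTRL cut nerve against 9.78 to 10.14 in KO uncut and 9.87 to 10.16 in CTRL uncut nerve. The part of these cells in the list was not tested.

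Adipogenic transcription factors beside Pparg fell in 9 of 15 cases, rose in 1 and did not pass in 5 (median -0.55). Klf15, a factor induced by glucocorticoid, changed by -1.73, Ppara by -1.14, the PPAR partner Rxrg by -1.001 and Ppargc1a by -0.85. Cebpa, which with Pparg maintains the fat cell state, fell by 0.55 (adjusted p = 0.00316), and the riser was Cebpb, an early adipogenic and inflammatory factor, at 0.77. Of 9 tested genes for fat cell hormone receptors and glucose uptake (14 symbols listed, Gpr81 being an older name of Hcar1) 7 fell, 0 rose and 2 did not pass (median -0.68). Ptger3, a prostaglandin E receptor that restrains lipolysis, changed by -2.04 and the activin receptor Acvr1c (ALK7) by -1.82. The lactate receptor Hcar1 changed by -1.37 and the fatty acid receptor Ffar4 by -0.78. Hcar1 and Ffar4 entered the fit through their uncut arrays alone, so their changes are a description.

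Adipokines and receptors outside the set were mixed. Of 11 tested (14 listed) 4 fell, 1 rose and 6 did not pass (median -0.05), against 24.7% of all genes called lower and 28.9% higher, so nothing is read from the count. Rbp4, the retinol carrier, changed by -1.91, Sfrp5 by -1.28 and the chemerin gene Rarres2 by -0.88, while the leptin receptor Lepr rose by 0.89 (SE 0.08, adjusted p = 7.0e-05). Adiponectin receptors stood at 0.11 (Adipor1, adjusted p = 0.242) and -0.69 (Adipor2, adjusted p = 0.00134). Of the 9 thermogenic genes 3 fell, 1 rose and 5 did not pass (median 0.04), against the same shares over all genes. Otop1, a proton channel found in brown fat, changed by -2.47, Ppargc1a by -0.85 and the potassium channel gene Kcnk3 by -0.55. Otop1 entered the fit through its uncut arrays alone (6.61 to 6.79, against 3.86 to 4.56 in cut nerve), so its change is a description. The riser was Dio2, a deiodinase that activates thyroid hormone in brown fat and in other tissues, at 2.35. No gene of the 6 lists was called for the genotype by injury interaction or between the uncut nerves, where 0.165% and 0% of all genes were called, so that 0 is near the background.

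**Figure D4:**
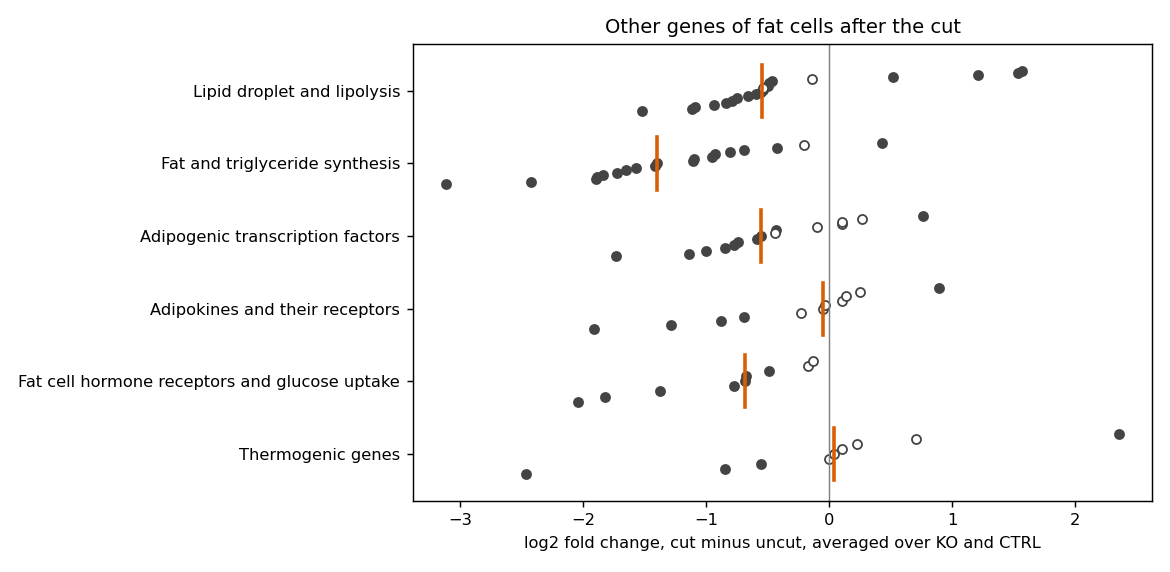
Log2 fold change, cut minus uncut, averaged over KO and CTRL (horizontal axis) of each tested gene in 6 lists of fat cell genes that leave out the 8 adipocyte genes; filled points passed at an adjusted p under 0.05 and open points did not, and the orange line is the list's median. Fat synthesis genes lie furthest to the left with a median of -1.40, and Fabp5, Plin2, Fitm1 and Dio2 lie above 1.

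The genes most like Adipoq over the 8 arrays were, in falling order of Pearson r, Fcor, Fam107a, Fabp4, Rarres2, Cyb5a, Slc7a10, Inmt, Stxbp4, Nipsnap1 and Smoc1 (r = 0.988 to 0.995, members left out). Adipoq itself separated the cut from the uncut arrays, so the values describe likeness and carry no p. Fabp4, the fatty acid carrier of adipocytes, read 13.70 and 13.29 in KO cut nerve against 14.25 and 14.07 in KO uncut nerve, and 13.71 and 13.32 in CTRL cut nerve against 14.21 and 14.16 in CTRL uncut nerve. Among the members r with Adipoq was 0.99 for Cidec, 0.93 for Lipe, 0.92 for both Pparg and Lep, 0.90 for Cidea, 0.86 for Retn and 0.57 for Ucp1. By r, Cidec ranked 10 among the genes tested, Lipe 543, Pparg 690, Lep 714, Cidea 1199, Retn 1720 and Ucp1 3941. Many genes outside the set therefore followed Adipoq more closely than most members did.

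The listed adipocyte markers outside the set fell in 8 of 9 cases (median -0.66), with Acvr1c at -1.82, Gpd1 at -1.40, Pck1 at -1.10 and Plin4 at -1.09. Aqp7, among the 8, entered the fit through uncut arrays alone (5.98 to 6.28 in cut nerve). Its fall, and the count that holds it, are a description. Car3, the remaining marker, did not pass (-0.15, adjusted p = 0.0902), and its probe set read 14.11 to 14.38 on every array, near the highest values of the arrays (14.74 to 14.91). Adipocyte progenitor markers went both ways: of 6 tested (7 listed) 3 fell, 1 rose and 2 did not pass (median -0.22), with Zfp423 at -0.74, Dpp4 at -0.50, Pdgfra at -0.26 and Dlk1 (preadipocyte factor 1) at 0.98. Of the 4 tested brown adipocyte markers 1 fell and 1 rose, Ppargc1a and Dio2. Other sheath and vessel markers, tested in the same averaged contrast, fell in 4 of 4 perineurial, 4 of 6 endothelial and 3 of 5 mural cases, and fibroblast markers rose in 5 of 7 and fell in 2. Over all genes 24.7% were called lower and 28.9% higher, beside which these counts are a description. Both measured red blood cell markers (4 listed) fell. Of the glandular and milk markers 2 rose, 1 fell and 6 did not pass.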

How the data were processed

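RNA of 8 pools was hybridised to 1-colour Affymetrix arrays. Each deposited value is on a log2 scale, with a value for every probe set and array, made by the authors with RMA and the package affy, per the submitters' processing notes; the notes listed here give no versions. RMA corrects background, equalises arrays and compresses differences of dim probe sets. Of 45101 probe sets, 34945 had 1 symbol in the platform annotation, 932 several and 9224 none. A probe set was kept if it exceeded its array's median on at least 2 arrays, and the kept probe set with the highest mean stood for its gene, which left 12093 genes.

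With limma 3.58.1 in R 4.3.3 the 4 group means were estimated from all 8 arrays (4 residual and 3.59 prior degrees of freedom). The 7 contrasts were tested two-sided with Benjamini-Hochberg adjustment over all genes, and the procedure was tested on simulated data. The design text calls the replicates independent pools, and the number of arrays limits precision. Members, lists, tests and naming rule were chosen with earlier results of these data known. The rule names the members, Jun, up to 4 called genes per list by size of change, and the 10 genes most like Adipoq; genes named beyond it (those that went against their list, Cebpa, Adipor1, Adipor2, array-number genes, markers) were chosen after their values were seen. Alternatives covered the filter, several probe sets per gene, normalization, moderation, a replicate block, fits of fewer arrays and leaving out arrays.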

Additional observations from a re-analysis of the deposited data

How the results depend on the processing

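Averaged over the genotypes, the falls of Adipoq, Retn, Cidec, Cidea and Pparg kept direction and call in every alternative and with each array left out. Ucp1 was not tested under the filter at the 75th percentile, and arrays were left out without filtering anew. Trended and robust moderation left 6 of 8 averaged calls, without Lep (adjusted p = 0.121) and Lipe (0.0690), and ended those of Adipoq in KO (0.0575) and CTRL nerve (0.0692). The replicate numbers could not be shown to pair the arrays: the correlation of same-numbered deviations was 0.02 to 0.34 over 6 group pairs. Between cut and uncut nerve of the same genotype it was 0.15 in KO and 0.18 in CTRL nerve. With a replicate block, 7 members were called lower in KO and 8 in CTRL nerve, among them Lep (adjusted p = 0.00039 in each) and Lipe (0.00214 in KO, 0.0181 in CTRL), and 4 genes for genotype in uncut nerve.

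Counts of genes called moved as follows. Without a filter, 27 genes were called for averaged genotype and 33 for the interaction; at the 75th percentile, 6 and 11. Averaging the probe sets of each gene gave 33 for the interaction and 1 for genotype in uncut nerve. Probe sets as units gave 6660 for injury in KO, 7555 in CTRL, 10299 averaged and 1 for genotype in uncut nerve. Further quantile normalization gave 6 for averaged genotype, and trended moderation 31 for the interaction. Fits of only the arrays compared gave 31 for genotype in cut and 9 in uncut nerve. Without the 2 cut arrays of higher milk protein signal, an alternative chosen after seeing the data, the counts were 2782 for injury in KO, 55, 9 and 20 for genotype in cut, in uncut and averaged.

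With 1 array left out, genes called ranged from 2734 to 4260 for injury in KO, 13 to 111 for genotype in cut, 0 to 2 in uncut, 1 to 19 averaged and 0 to 45 for the interaction, and members called from 0 to 1 for genotype in uncut, for averaged genotype and for the interaction. The change relative to Adipoq ranged from -0.20 to 0.058 for Pparg and from -1.09 to 0.12 for Ucp1. Among 488 other genotype values of members across the alternatives, 65 changed sign, none of them called. The cause of these shifts was not tested.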
